A study of Mus musculus with 6 samples.

Results

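The genes described here make or control the enzymes that cut and link the extracellular matrix of the kidney: matrix metalloproteinases (Mmp), the ADAM and ADAMTS proteases, their inhibitors, the plasminogen activators, the meprins, and the lysyl oxidases and transglutaminases that crosslink matrix proteins. They were chosen by gene name from the array annotation, using probe sets listed for exactly 1 gene, and numbered 85 of 18193 genes. Expression was measured on 6 Affymetrix arrays of macro-dissected mouse kidney tissue. The first group was 3 samples of cystic renal epithelium from Fh1 knockout mice, and the second was 3 samples of renal epithelium from sex-matched, disease-free wild-type littermates. Fh1 encodes fumarate hydratase of the tricarboxylic acid cycle. No source used here gives the promoter or Cre driver, the strain, the age or the sex of the mice. Nor do the labels tie each sample to its own animal, and the spread behind the p-values may then be technical.

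Metalloproteinases are made as inactive precursors. Membrane-type enzymes such as MMP14 activate others at the cell surface, and tissue inhibitors of metalloproteinases (TIMPs) block the active enzymes. The ADAMs shed membrane proteins, the ADAMTS enzymes cut proteoglycans and procollagens, and plasmin, made from plasminogen by the urokinase and tissue-type activators, degrades fibrin and activates metalloproteinases. Lysyl oxidases join collagen and elastin chains, and meprins are metalloproteases of the proximal tubule brush border.

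Values are log2 RMA values, the authors' normalised array signal. A difference is the mean of the knockout samples minus the mean of the wild-type samples on this scale, with its standard error (SE) from limma. A gene passed the test at an adjusted p under 0.05, adjusted over all 18193 genes. Levels were not compared between genes, because probe sets differ in how strongly they bind. Fh1 itself read 11.58 ± 0.04 in knockout samples and 12.32 ± 0.10 in wild-type samples (SD, n = 3 each), and whether its probe set lies in the deleted part is not known here. Array medians ran from 6.24 to 6.25 in knockout samples and from 6.20 to 6.23 in wild-type samples. Across genes, which are not independent replicates, pairs of knockout arrays correlated at 0.995 to 0.997, pairs of wild-type arrays at 0.988 to 0.992, and pairs with 1 array of each group at 0.952 to 0.964.

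A short promoter motif is shown first because most of the metalloproteinase genes that neighbour each other on chromosome 9 share it, while their differences between the groups do not match. The sequences below are 25 bases either side of a match to the AP-1 letters TGANTCA, searched on both strands in the 250 bases before the start of each gene. AP-1 is the Fos and Jun transcription factor family, and such sites are well known in metalloproteinase promoters. Each sequence is the sense strand of the gene, 5′ to 3′, from RefSeq (GRCm38.p6), with the match in capitals.
Mmp3 (chr9:7445751-7445807, + strand): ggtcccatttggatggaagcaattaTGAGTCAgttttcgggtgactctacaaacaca
Mmp12 (chr9:7347305-7347361, + strand): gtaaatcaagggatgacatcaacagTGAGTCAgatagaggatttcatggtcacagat
Mmp10 (chr9:7502254-7502310, + strand): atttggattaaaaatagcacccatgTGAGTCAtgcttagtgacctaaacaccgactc
Mmp7 (chr9:7692002-7692058, + strand): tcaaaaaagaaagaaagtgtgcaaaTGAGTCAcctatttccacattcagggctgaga
Mmp13 (chr9:7272454-7272510, + strand): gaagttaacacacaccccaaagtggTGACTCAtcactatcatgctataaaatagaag
Mmp1a (chr9:7464043-7464099, + strand): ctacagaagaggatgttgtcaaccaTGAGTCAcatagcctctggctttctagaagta
Plaur (chr7:24462389-24462445, + strand): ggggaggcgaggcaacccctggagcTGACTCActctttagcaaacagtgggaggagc
In Mmp3 the match lies at positions -46 to -40, where -1 is the base before the start. Mmp3 and Mmp12 were higher in the knockout, Mmp10 was lower, and Mmp7, Mmp13 and Mmp1a did not pass the test. Mmp13 averaged 4.46 in knockout and 4.53 in wild-type samples, and Mmp1a 3.34 and 3.49. These averages lie below the lower quartile of every array, where a lack of difference says little. Mmp13 itself read above that of its array in knockout 2 (4.97) and wild-type 3 (4.81). Plaur, which lies outside the Mmp run, was higher.

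Of the 85 genes, 22 were higher in the knockout, 18 were lower and 45 did not pass. Over all genes, 21.6% were higher and 27.7% lower, 49.2% in either direction. The members called higher were 25.9% and those called lower 21.2% of the 85. At a difference of at least 2-fold, 13 members were higher and 1 lower, that is 15.3% and 1.18% of the 85, against 5.44% and 3.39% of all genes. The median difference was -0.10 over the members and -0.11 over all genes. The higher calls held better than the lower ones: 16 of 22 higher calls and 4 of 18 lower calls passed at 0.05 in every alternative fit that tested the gene. Leaving out knockout 1, knockout 2 or knockout 3 left 10, 11 and 8 members lower, against 18 with all arrays; over all genes it left 3160, 3702 and 3279 lower, against 5031. Shifting all arrays to a common median gave 20 higher and 30 lower, so that 60.0% of the member calls were lower, against 45.0% as deposited. Quantile normalisation gave 22 higher and 8 lower, 26.7% lower. Over all genes the lower share of calls was 67.0% with a common median and 52.0% with quantile normalisation, against 56.2% as deposited.

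**Figure D1:**
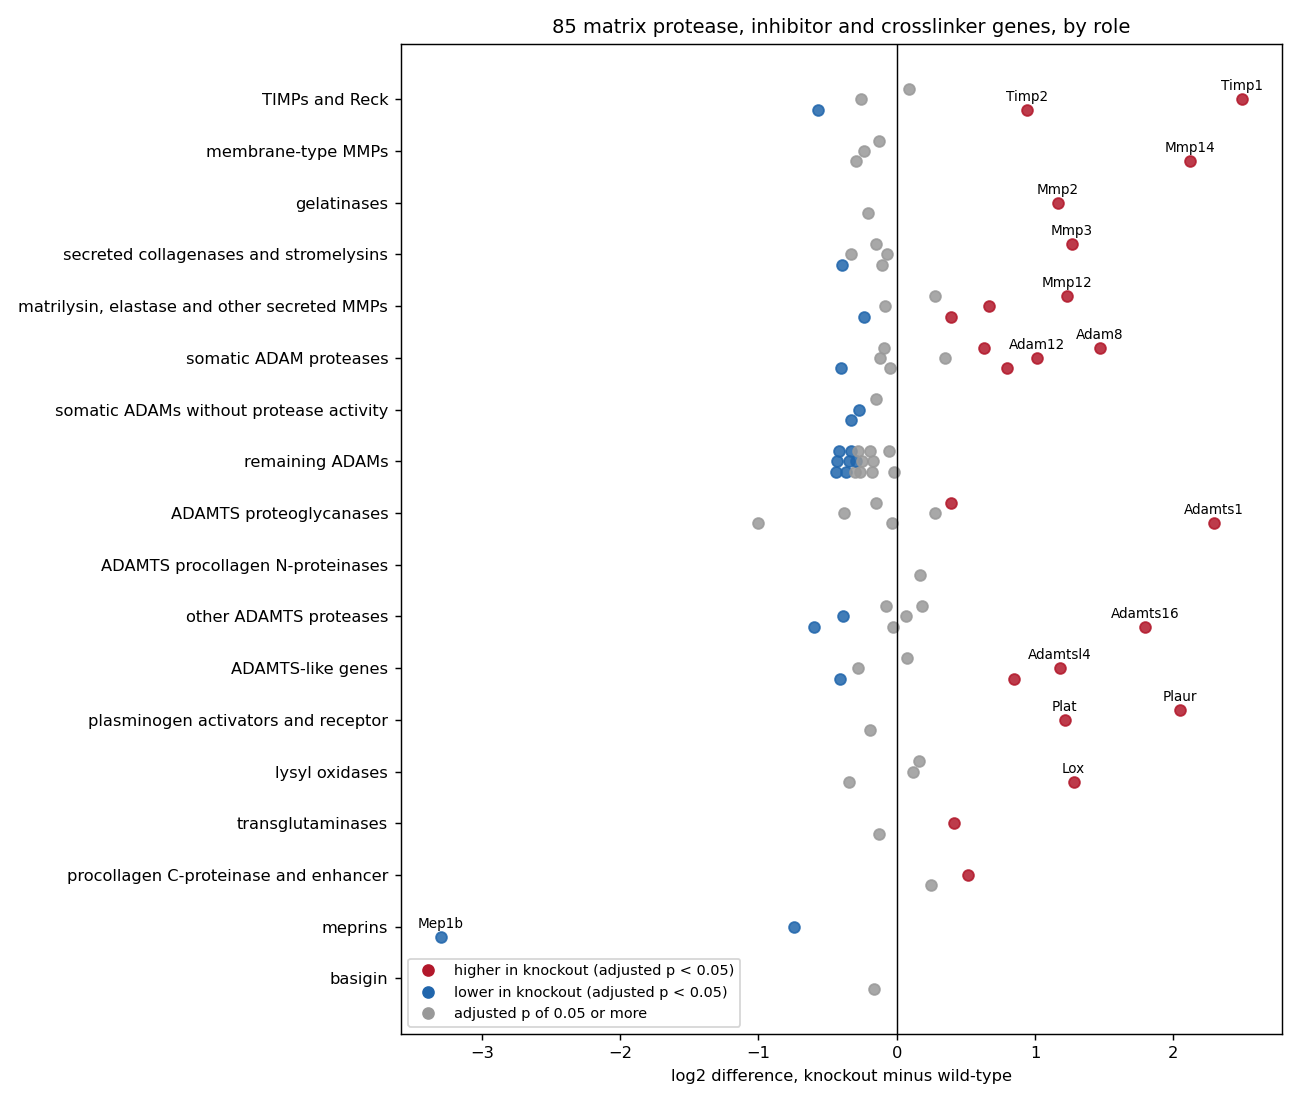
The difference, knockout minus wild-type, of each of the 85 genes on the log2 scale, 1 point a gene, with genes in rows by role and spread within a row only for legibility. Red points were higher and blue points lower at adjusted p under 0.05, and grey points did not pass; names are given for genes called with a difference of 0.9 or more in size. Timp1 is farthest to the right at 2.50 and Mep1b farthest to the left at -3.30.

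Among the inhibitors, Timp1 and Timp2 rose and Timp3 fell. Timp1, an inducible inhibitor of most soluble metalloproteinases, read 8.42, 8.50 and 9.03 in knockout samples, against 6.27, 5.86 and 6.32 in wild-type samples. Every knockout value was above every wild-type value, a 5.65-fold difference (log2 difference 2.50, SE 0.19, adjusted p = 7.36e-05). Such groups without overlap were seen for 62.9% of all genes, 25.7% with the knockout above and 37.1% with it below. Timp2, which also takes part in the activation of pro-MMP2 by MMP14, read 10.39, 10.80 and 10.996 in knockout samples and 9.86, 9.76 and 9.74 in wild-type samples. That was 1.92-fold higher (adjusted p = 0.00195), and knockout 1 was the closest to the wild-type values. Of the 5 other Timp2 probe sets, 4 were also higher.

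Timp3, the matrix-bound inhibitor that also blocks ADAM17 and several ADAMTS enzymes, read 12.31, 12.29 and 12.39 in knockout samples and 12.95, 12.78 and 12.98 in wild-type samples. It was 1.49-fold lower with no overlap (log2 difference -0.57, SE 0.09, adjusted p = 0.0016). All 3 of its other probe sets were lower too, by more: their differences ran from -1.34 to -0.74. Timp4 had a difference of -0.26 (SE 0.10, adjusted p = 0.0719), and it passed when arrays were shifted to a common median (-0.34). Reck, a membrane-anchored inhibitor of metalloproteinases, averaged 8.08 ± 0.29 in knockout samples and 7.99 ± 0.42 in wild-type samples (SD, n = 3 each), and the groups overlapped (adjusted p = 0.744).

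The membrane-type and gelatinase genes each had 1 member that rose. Mmp14, the membrane-type protease that activates pro-MMP2 and cuts fibrillar collagen, read 8.76, 9.04 and 9.12 in knockout samples and 7.06, 6.67 and 6.83 in wild-type samples. It was 4.34-fold higher (log2 difference 2.12, SE 0.13, adjusted p = 3.96e-05) with no overlap. A second Mmp14 probe set was higher by 1.27 and another, at 0.13, did not pass, so the mean over its probe sets gave 1.17. Mmp2, gelatinase A, read 7.01, 7.88 and 8.26 in knockout samples and 6.32, 6.80 and 6.54 in wild-type samples. It was 2.24-fold higher (adjusted p = 0.0143), with knockout 1 only just above the highest wild-type value. Without knockout 2 Mmp2 had a difference of 1.09 and did not pass (adjusted p = 0.0517). Mmp9, gelatinase B, averaged 5.75 ± 0.16 in knockout samples and 5.96 ± 0.13 in wild-type samples (SD, n = 3 each), and its groups overlapped (adjusted p = 0.149). It passed as lower in the mean over its 2 probe sets (-0.24, adjusted p = 0.0351).

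**Figure D2:**
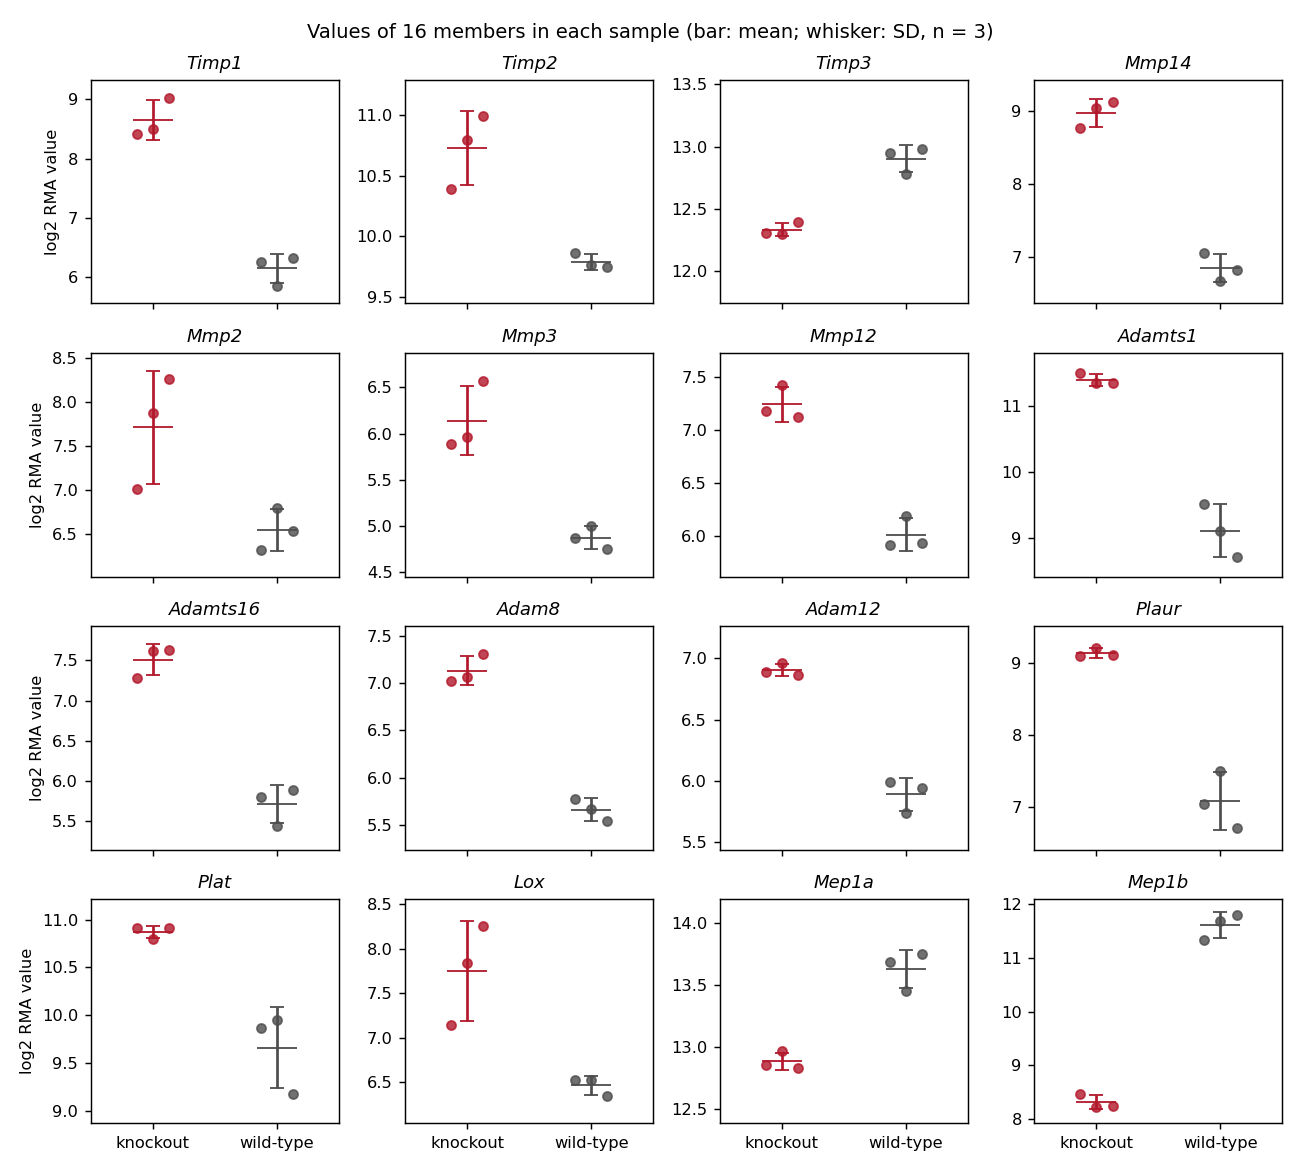
Log2 RMA values of 16 members, 1 panel a gene, with knockout samples left and wild-type samples right; points are samples, the bar is the mean and the whisker the SD of 3 samples. The axis of each panel has its own range. The groups do not overlap in any of the 16 panels, but all 16 genes were picked from members that passed the test. Of the 85 members, 34 had overlapping groups, and 62.9% of all genes had groups without overlap. Among knockout samples Mmp2 (SD 0.64) and Lox (SD 0.56) are the most scattered.

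The remaining secreted metalloproteinases moved separately. Mmp3, stromelysin 1, read 5.89, 5.96 and 6.57 in knockout samples and 4.88, 4.997 and 4.75 in wild-type samples, a 2.40-fold rise (adjusted p = 0.00115). Mmp12, the macrophage elastase, read 7.18, 7.43 and 7.12 in knockout samples and 5.91, 6.18 and 5.93 in wild-type samples, a 2.35-fold rise (adjusted p = 0.00019). Both genes had no overlap between the groups. Mmp11, stromelysin 3, rose 1.59-fold (adjusted p = 0.001) and Mmp23 1.31-fold (adjusted p = 0.0319). Mmp11 and Mmp23 were named after their values were seen. Mmp23 lost its call in 8 alternative fits, among them those without knockout 2, knockout 3, wild-type 2 or wild-type 3. Mmp10, stromelysin 2, fell by 0.40 on the log2 scale (adjusted p = 0.0288) and Mmp19 fell by 0.24 on the log2 scale (adjusted p = 0.0357). Mmp10 lost its call in 7 alternative fits and Mmp19 in 8. The other Mmp19 probe set had a difference of 0.13 and did not pass. Genes of every kind with a mean signal from 4.30 to 5.02, where Mmp19 lies, had a median difference of -0.24. From 5.02 to 5.81, where Mmp10 lies, the median was -0.25. What this general shift adds to the Mmp10 and Mmp19 calls was not tested.

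These differences can be read along the chromosome. RefSeq lists 10 Mmp genes that lie side by side on chromosome 9 with 0 other protein-coding genes between them, and 9 were measured. In order they are Mmp13 (collagenase 3), Mmp12, Mmp1b, Mmp3, Mmp1a, Mmp10, Mmp8 (neutrophil collagenase), Mmp20 (enamelysin) and Mmp7 (matrilysin). Of the 9, 2 were higher, 1 lower and 6 did not pass, beside 21.6% higher and 27.7% lower over all genes. Mmp7 had a difference of 0.28 (SE 0.10, adjusted p = 0.054), with all knockout values above all wild-type values. Mmp7 passed without knockout 3 (0.37, adjusted p = 0.023) and in the fit on means of probe sets (adjusted p = 0.0443). As Mmp7 has only 1 probe set, its values in the latter fit were unchanged. Mmp8 had a difference of -0.33 (adjusted p = 0.0717) and passed as lower in 3 alternative fits, 1 of them without wild-type 3. Mmp13 had a difference of -0.07 (SE 0.24, adjusted p = 0.816), with overlapping groups. Mmp13, Mmp1a, Mmp1b and Mmp20 averaged below the lower quartile of every array in both groups, where a lack of difference says little. Mmp7, Mmp13, Mmp8, Mmp1a, Mmp1b and Mmp20 were named as neighbours after their values were seen. The AP-1 letters stood before 8 of the 9 genes, the exception being Mmp8, and began between positions -95 and -35. Neighbouring genes of a family share ancestry, so these matches are not independent of each other.

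**Figure D3:**
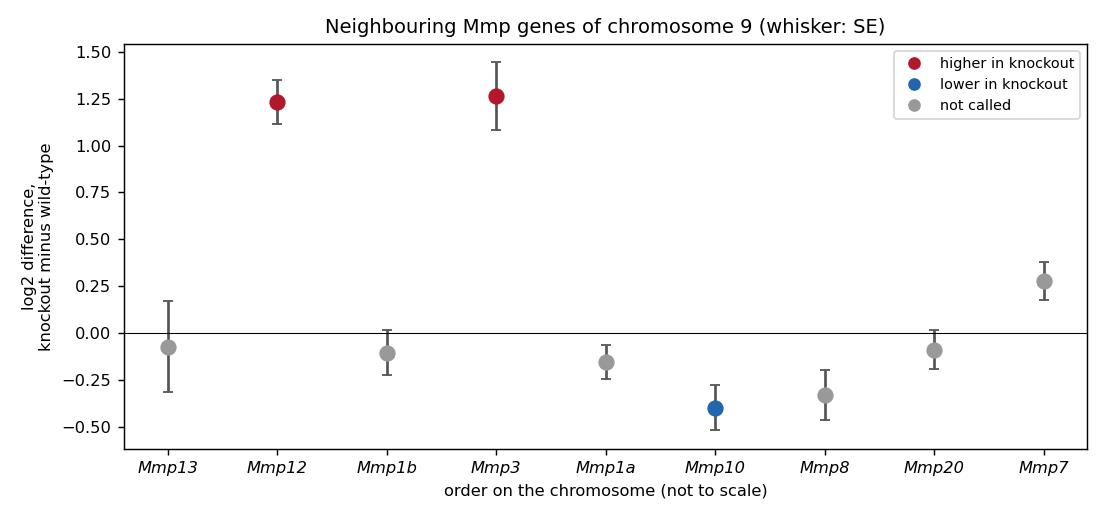
Log2 difference, knockout minus wild-type, of the 9 measured Mmp genes of chromosome 9 in their order on the chromosome, with the SE as whisker. Mmp12 at 1.23 and Mmp3 at 1.26 stand above 0, while the genes beside them lie between -0.40 and 0.28.

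Promoter windows were present in RefSeq for 47 members, 5 of them with several windows. The AP-1 letters were found in 11 of these 47 genes (23.4%) and in 7.82% of the 27025 genes with windows of the same length. Of the 11, 8 belonged to the Mmp run of chromosome 9, so the share of 23.4% mostly reflects that run of related genes. The rest, Plaur among them, lay outside it. By call, 3 of 13 higher members, 1 of 9 lower members and 7 of 25 members that did not pass held the AP-1 letters. The core of the hypoxia response element, ACGTG, was found in 10 of 47 members (21.3%) and in 18.5% of all genes. Timp1, Mmp14 and Adam10 were the 3 higher members that held it. The letters TGACNNNGC of the antioxidant response element were in 5 of 47 members and 11.5% of all genes, with Timp2 the 1 higher member. A match is a stretch of letters and was not shown to be bound.

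Among the 9 somatic ADAM proteases, 4 rose and 1 fell, beside 21.6% higher and 27.7% lower over all genes. Adam8, a protease of leukocytes and of some injured tissues, read 7.02, 7.07 and 7.30 in knockout samples and 5.77, 5.67 and 5.54 in wild-type samples. It was 2.77-fold higher (adjusted p = 6.53e-05) with no overlap. Adam12 averaged 6.91 ± 0.05 in knockout samples and 5.89 ± 0.13 in wild-type samples (SD, n = 3 each), 2.02-fold higher (adjusted p = 0.000158). The other Adam12 probe set did not pass (0.19), and the mean of the probe sets gave 0.61.

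The major sheddases rose less. Adam17, which releases TNF and EGF receptor ligands, averaged 9.04 ± 0.09 in knockout samples and 8.41 ± 0.05 in wild-type samples (SD, n = 3 each), 1.55-fold higher (adjusted p = 0.000786); its 2 other probe sets did not pass, at 0.17 and 0.21. Adam10, which also cuts Notch receptors, read 11.33, 11.32 and 11.26 in knockout samples and 10.50, 10.71 and 10.32 in wild-type samples. It was 1.73-fold higher (adjusted p = 0.00096), but 1 of its 3 other probe sets was lower (-0.42) and the mean over all 4 did not pass (0.20, adjusted p = 0.0616). Adam28 was 1.32-fold lower (adjusted p = 0.0206), and lost its call under quantile normalisation, without knockout 3 and without wild-type 1. Its second probe set did not pass (-0.02), and the mean of both was -0.21. Adam28 averaged 4.31 in knockout and 4.71 in wild-type samples. Genes of every kind with a mean signal from 4.30 to 5.02, where it lies, had a median difference of -0.24. What this general shift adds to the Adam28 call was not tested. Adam9 had a difference of -0.12 (SE 0.09, adjusted p = 0.297) and was named after its values were seen.

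Other ADAM genes leaned lower together, most of them at low signal. Of the 16 ADAMs outside the somatic groups, mainly genes of male germ cells, 16 had a negative difference and 7 passed, against 27.7% of all genes called lower. Their differences ran from -0.44 for Adam1b to -0.02, with a median of -0.29. None of the 7 calls held in every alternative fit: 6 were lost without knockout 3, 4 without knockout 1 and 4 without knockout 2. Adam1b itself lost its call without knockout 1, without knockout 3 and under quantile normalisation. Of the 3 somatic ADAMs without protease activity, 2 fell, led by Adam11 at -0.33 (adjusted p = 0.0174), a call lost without knockout 2 and without knockout 3. Below the lower quartile of mean signal, where 12 of the 16 lie, 4548 genes of every kind had a median of -0.19, and 3866 of them were negative. At that signal 4 of the 12 ADAMs were called lower (33.3%), against 27.6% of the 4548 genes. Not all calls lay there. Adam4 was lower by -0.35 (adjusted p = 0.0124) at a mean signal of 7.21, and lost its call only without knockout 1. Adam21 was lower by -0.43 (adjusted p = 0.0161) at 5.97. The median of all genes was -0.07 in the bin of Adam4 and -0.20 in that of Adam21. Adam4 and Adam21 were named after their values were seen. The lower quartile of the arrays was 4.62 to 4.65 in knockout samples and 4.72 to 4.77 in wild-type samples. Under quantile normalisation 14 of the 16 stayed negative, 2 passed and their median was -0.16; when arrays were shifted to a common median 12 passed. What this general shift adds to the ADAM calls was not tested.

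**Figure D4:**
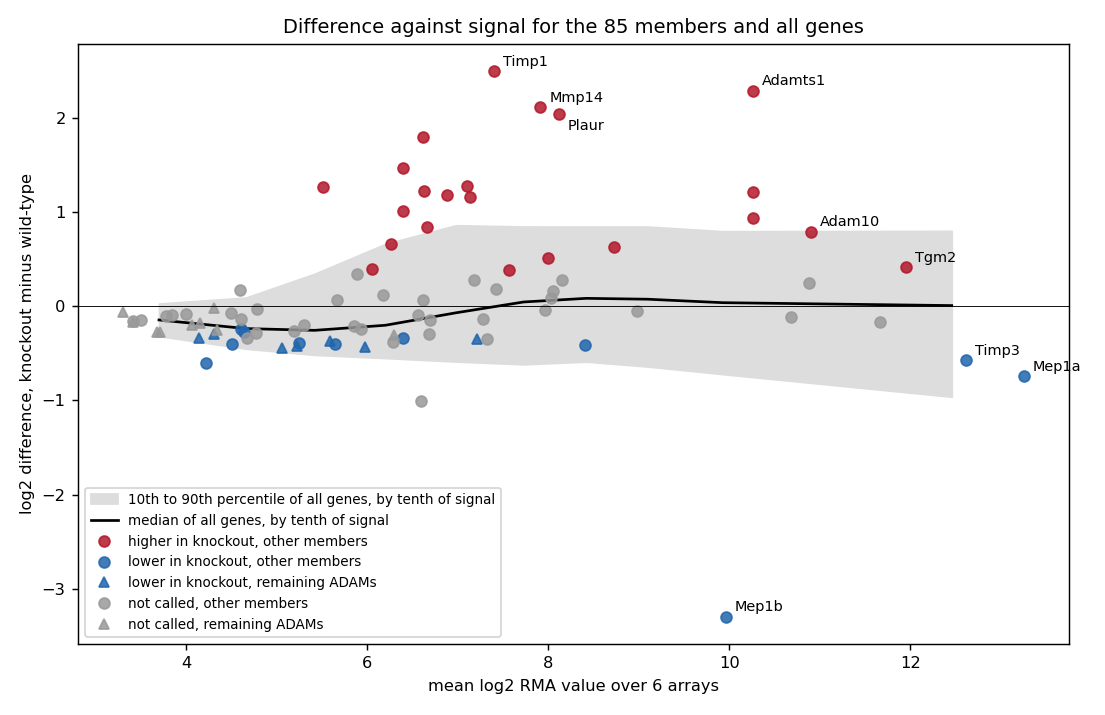
Log2 difference, knockout minus wild-type, against the mean log2 RMA value over 6 arrays. Points are the 85 genes coloured by call, with triangles for the 16 ADAMs outside the somatic groups; the line is the median of all genes in each of 10 bins of signal with equal numbers of genes, and the grey band spans all but the outer percentiles named in the legend. The line lies at -0.25 in bin 3 and at 0.09 in bin 7.

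Adamts1 led the ADAMTS proteases. Adamts1, which cuts versican and aggrecan, read 11.51, 11.36 and 11.35 in knockout samples and 9.51, 9.11 and 8.72 in wild-type samples. With no overlap it was 4.90-fold higher (log2 difference 2.29, SE 0.18, adjusted p = 9.27e-05). Adamts16 read 7.28, 7.62 and 7.63 in knockout samples and 5.80, 5.45 and 5.89 in wild-type samples, 3.47-fold higher (adjusted p = 9.63e-05). Its second probe set had a difference of -0.12 and did not pass, and the mean of the pair gave 0.84. Adamts4, an aggrecanase, was 1.31-fold higher (adjusted p = 0.0465), but that call was lost without any 1 of the 6 arrays; it was named after its values were seen.

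The other direction was smaller or less certain. Adamts18 averaged 3.92 ± 0.19 in knockout samples and 4.52 ± 0.12 in wild-type samples (SD, n = 3 each), 1.52-fold lower (adjusted p = 0.00527), at a signal below the lower quartile of every array. Its 2 other probe sets did not pass, at -0.18 and -0.09, and the mean over all 3 was -0.29. Adamts15 read 6.02, 6.08 and 6.20 in knockout samples and 8.15, 6.35 and 6.81 in wild-type samples. All knockout values were lower, but wild-type 1 stood far above the others and the difference of -1.01 missed the threshold (adjusted p = 0.0684). With wild-type 1 left out it was -0.48 and called (adjusted p = 0.0398), as it also was without wild-type 2 (-1.38), with array weights (-1.23) and with arrays shifted to a common median (-1.08). Adamts15 was named after its values were seen. Adamts3, the 1 measured procollagen N-proteinase, had a difference of 0.17 (adjusted p = 0.229). It was called higher under quantile normalisation (0.36, adjusted p = 0.0457), while its other probe set was called lower (-0.27, adjusted p = 0.0363).

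Among the 5 ADAMTS-like genes, which lack a protease domain and bind matrix microfibrils, 2 rose and 1 fell. The shares over all genes were 21.6% higher and 27.7% lower. With the mean of a gene's probe sets, 3 of the 5 rose and 1 fell. Adamtsl4 averaged 7.48 ± 0.27 in knockout samples and 6.30 ± 0.30 in wild-type samples (SD, n = 3 each), 2.26-fold higher (adjusted p = 0.00185). Adamtsl1 was 1.80-fold higher (adjusted p = 0.0119) and was named after its values were seen. Adamtsl2 was 1.33-fold lower (adjusted p = 0.0257), and of the fits with 1 array left out it lost its call without knockout 1 (-0.30) and without wild-type 1 (-0.34).

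In the plasminogen system the receptor and the tissue-type activator rose, and urokinase did not pass. Plaur, the urokinase receptor, read 9.09, 9.21 and 9.11 in knockout samples and 7.05, 7.51 and 6.71 in wild-type samples. It was 4.13-fold higher (log2 difference 2.05, SE 0.18, adjusted p = 0.000144) with no overlap, and the wild-type samples were the more scattered. Plat, the tissue-type activator, read 10.91, 10.80 and 10.91 in knockout samples and 9.86, 9.95 and 9.17 in wild-type samples, 2.32-fold higher (adjusted p = 0.00197). A dimmer Plat probe set did not pass (-0.04), so the mean of both was 0.59. Plau, which encodes urokinase, read 5.26, 5.18 and 5.17 in knockout samples and 5.49, 5.24 and 5.47 in wild-type samples. Its groups overlapped and the difference of -0.20 (SE 0.10) did not pass (adjusted p = 0.12), except without wild-type 2 (-0.28, adjusted p = 0.0364).

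Around these members, 26 genes of the plasmin system and of serine protease inhibition were measured. Of these, 10 rose and 6 fell (median difference 0.17, against -0.11 over all genes). The shares over all genes were 21.6% higher and 27.7% lower. F3, tissue factor, rose 4.69-fold and Anxa2, the annexin that with S100a10 holds plasminogen and its activator at the cell surface, 3.60-fold. Serpinf2, the plasmin inhibitor alpha-2-antiplasmin, was 3.69-fold lower. Of 18 cathepsins and cystatins, 11 rose and 1 fell (median 0.47). Ctss, cathepsin S of antigen-presenting cells, rose 4.13-fold, Ctsc 3.02-fold and Ctse 2.89-fold, and Ctsf was 1.81-fold lower.

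Of the crosslinking enzymes, Lox and Tgm2 rose. Lox, which oxidises lysines of collagen and elastin, read 7.14, 7.83 and 8.25 in knockout samples and 6.52, 6.53 and 6.35 in wild-type samples. It was 2.43-fold higher (log2 difference 1.28, SE 0.25, adjusted p = 0.00483) with no overlap and a wide spread among knockout samples. The other Lox probe sets did not pass, at 0.64 and -0.14, and the mean over the 3 was 0.59. Tgm2, the tissue transglutaminase, averaged 12.16 ± 0.06 in knockout samples and 11.75 ± 0.21 in wild-type samples (SD, n = 3 each), 1.34-fold higher (adjusted p = 0.0209), a call lost without knockout 1, without knockout 2 and without knockout 3 (adjusted p = 0.0743, 0.0517 and 0.0527). Tgm1, the keratinocyte transglutaminase, did not pass (-0.13, adjusted p = 0.428).

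No other lysyl oxidase passed. Loxl1 read 7.73, 7.82 and 8.85 in knockout samples and 7.93, 7.96 and 8.02 in wild-type samples. Knockout 3 was the highest of the 6 and the other knockout values were the lowest, so the difference of 0.16 became -0.20 without knockout 3. Loxl2 has no probe set of its own and is not analysed here. Loxl3 had a difference of 0.12 (adjusted p = 0.443). Loxl4 read 8.35 in wild-type 2 alone, and without it the difference of -0.35 was 0.08.

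Bmp1, the procollagen C-proteinase, was 1.43-fold higher (8.25 ± 0.10 in knockout samples, 7.74 ± 0.26 in wild-type samples, SD, n = 3 each; adjusted p = 0.0164). Its call was lost without knockout 2 and without knockout 3 (adjusted p = 0.0564 and 0.0561), and its 2 other probe sets went opposite ways, 0.90 and -0.35, both called. Pcolce, which enhances that proteinase, averaged 11.01 ± 0.38 in knockout samples and 10.76 ± 0.42 in wild-type samples (SD, n = 3 each) with overlapping groups (adjusted p = 0.414). Bsg, basigin, a membrane glycoprotein known to induce metalloproteinases, had a difference of -0.17 (adjusted p = 0.427). Without wild-type 3, which at 11.33 was the lowest of the 6 samples, Bsg was lower (-0.38) and passed (adjusted p = 0.00894).

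The substrates were measured beside the enzymes. Of 37 matrix proteins, 19 were higher and 4 lower (median 0.45), beside 21.6% higher and 27.7% lower over all genes. Fn1, fibronectin, was 7.25-fold, Col3a1 6.77-fold and Col1a1 5.25-fold higher, and Fbln5, an elastic fibre protein, was 2.06-fold lower. Of 23 collagen-modifying and processing genes outside the members, 9 were higher and 5 lower (median -0.18). F13a1, the factor XIII transglutaminase subunit, was 4.42-fold higher, Plod2, a collagen lysyl hydroxylase, 2.55-fold and Sparc, a collagen-binding protein, 2.38-fold higher, while the proprotein convertase Pcsk5 was 2.18-fold lower.

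Both meprins fell, and Mep1b had the largest change of the 85 genes in either direction. Mep1b, meprin beta, read 8.46, 8.23 and 8.25 in knockout samples, against 11.34, 11.69 and 11.80 in wild-type samples. It was 9.82-fold lower with no overlap (log2 difference -3.30, SE 0.14, adjusted p = 1.12e-05). Mep1a, meprin alpha, read 12.85, 12.96 and 12.83 in knockout samples and 13.68, 13.45 and 13.74 in wild-type samples, 1.67-fold lower (log2 difference -0.74, SE 0.10, adjusted p = 0.000925), and its second probe set had a difference of -0.72. The meprins are proximal tubule proteins, and of 19 proximal tubule markers 17 were lower, with a median of -1.45, against 27.7% of all genes lower. Slc6a19, the neutral amino acid transporter, was 7.29-fold, Slc5a12 6.68-fold and Slc5a2 5.29-fold lower. The mean level of this list was 11.19 to 11.44 in knockout samples and 12.69 to 12.94 in wild-type samples. In bulk tissue fewer cells of a type and less RNA per cell cannot be told apart.

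Among markers of other cells, the immune and fibroblast lists had mostly higher members. The neutrophil, distal nephron and endothelial lists had more lower than higher ones. All genes together, for comparison, were 21.6% higher and 27.7% lower. Of 22 immune cell markers, 19 were higher and 1 lower, with a list mean of 8.63 to 8.91 in knockout samples and 7.23 to 7.47 in wild-type samples. Cd14 was 7.86-fold, Laptm5 5.08-fold and C1qb 4.86-fold higher, and Cd8a was 1.40-fold lower. Of 15 fibroblast and myofibroblast markers, 11 were higher, with a mean of 8.66 to 9.65 in knockout samples and 7.69 to 8.04 in wild-type samples; Thy1 was 4.18-fold higher, and Col3a1 and Col1a1, given above, are also in this list. Of 9 neutrophil markers 1 was higher (Ltf, 1.56-fold) and 4 were lower, among them Mpo (1.46-fold) and Ngp (1.37-fold), at 5.09 to 5.24 in knockout samples and 5.32 to 5.53 in wild-type samples. The groups of Mpo overlapped. Genes of every kind had a median difference of -0.24 at the signal of Mpo (4.30 to 5.02) and -0.25 at that of Ngp (5.02 to 5.81). What this general shift adds to the neutrophil calls was not tested. Of 14 distal nephron markers 10 were lower, led by Pvalb (12.5-fold), Egf (12.2-fold) and Slc26a4 (5.45-fold), at 9.48 to 9.87 in knockout samples and 10.91 to 11.06 in wild-type samples. Of 13 endothelial markers 8 were lower and 2 higher, with Ehd3 2.26-fold and Emcn 1.76-fold lower and Vwf 2.27-fold higher, at 8.16 to 8.34 in knockout samples and 8.48 to 8.71 in wild-type samples. The part of these cells in the changes of the proteases and inhibitors was not tested.

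The members differed in how they varied among the knockout samples. Of the 22 higher members, 15 were highest in knockout 3 and 14 were lowest in knockout 1, that is 68.2% and 63.6%. Of all 85 members, 37 were highest in knockout 3 and 40 were lowest in knockout 1 (43.5% and 47.1%). Among the 3928 genes called higher over the whole array, 34.6% were highest in knockout 3 and 33.5% lowest in knockout 1. The fibroblast list had the same extremes, with means of 8.66 in knockout 1, 9.13 in knockout 2 and 9.65 in knockout 3. The immune list was also lowest in knockout 1 but highest in knockout 2, with means of 8.63, 8.91 and 8.84. Lox, Mmp2 and Timp2, like Loxl1 and Pcolce, were lowest in knockout 1 and highest in knockout 3. Adamts1, Adam12, Plaur and Plat were less scattered, with SDs of 0.09, 0.05, 0.06 and 0.06 in knockout samples, against 0.56 for Lox and 0.64 for Mmp2. Without knockout 1 the difference of Mmp2 was 1.52 and that of Lox 1.58. The genes of this paragraph were picked after their values were seen, and 3 samples give no test of such a pattern.

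**Figure D5:**
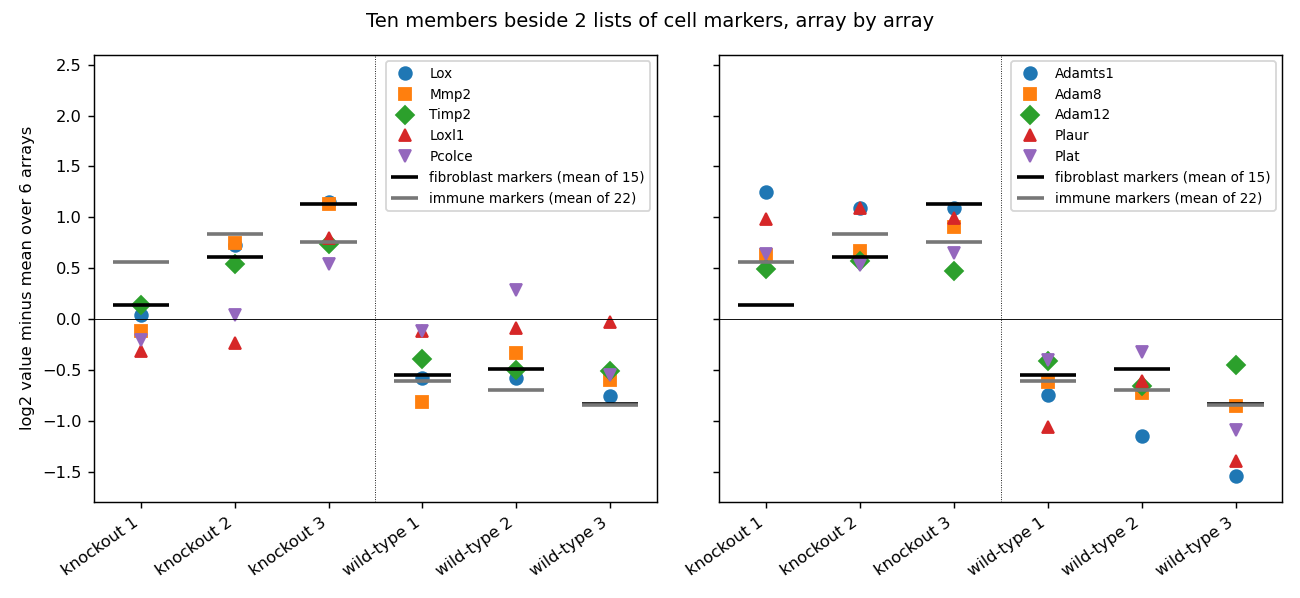
Log2 value of each sample minus the mean over the 6 arrays, for 10 members in 2 panels (symbols), with the mean of 15 fibroblast markers (black bars) and of 22 immune markers (grey bars) repeated in both. In the left panel Lox, Mmp2, Timp2, Loxl1 and Pcolce are lowest in knockout 1 and highest in knockout 3 among knockout samples, as the black bars are; in the right panel the 5 genes lie above 0 in all 3 knockout samples.

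Probe sets of the same gene did not always tell the same story. Of the 22 called members with several probe sets, 10 had another one called the same way and 2, Adam10 and Bmp1, had one called the opposite way. Of the 19 members with several probe sets that did not pass, 7 had another probe set that did. Mmp9 is among those 7, as is Adamts9, whose second probe set was higher by 1.07. On its brightest probe set Adamts9 had a difference of 0.28 (adjusted p = 0.118), and it passed in the mean of its probe sets (0.42) and without wild-type 1 (0.41). Adamts9 was named after its values were seen.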

How the data were processed

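Tissue of 3 knockout and 3 wild-type samples was hybridised to 1 Affymetrix array each. The deposited values are RMA expression values, per the submitters' processing notes, for 45101 probe sets; that they are on the log2 scale was read from the deposited values (2.90 to 14.82). No source used here gives the RMA version or the chip definition. RMA gives no detection call, and arrays have no counting depth, so the 3 samples a group limit the precision.

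Probe sets were named from the platform annotation: 34945 had 1 gene, 932 several, 9160 none and 64 were controls. Symbols followed the Entrez identifier in RefSeq (GRCm38.p6) for 34741. For each of 18193 genes the brightest probe set, by its mean over 6 arrays, was used. Groups were compared with limma 3.58.1 (R 4.3.3; lmFit and eBayes, two-sided, no covariate, no filter), adjusted by Benjamini-Hochberg at 0.05. The fit was tested on simulated data. Plots used matplotlib 3.10.9 (Python 3.11.15).

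Members and lists were chosen with earlier results of these data known. The text names called members with a log2 difference of at least 1, a fixed set of inhibitors, gelatinases, sheddases, activators, crosslinkers and meprins, the largest call each way of each role (or the smallest p where none passed), and from each list the 3 largest called changes and the largest opposite one. Col3a1 and Col1a1 stand in 2 lists. Alternatives averaged a gene's probe sets, kept only the brighter genes, used a trended and robust prior, shifted arrays to a common median, quantile-normalised them, weighted them, or added a replicate block. Others were a fit over all probe sets, a threshold of 0.01 and each array left out. Same-numbered samples did not deviate together (correlations of deviations from -0.13 to -0.10), so the numbers were not taken as pairs.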

Additional observations from a re-analysis of the deposited data

How the results depend on the processing

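Over 55 named members and 737 alternative values, 649 kept their direction and side of the threshold, 53 lost the call, 16 gained one and 19 changed sign. Members called lower numbered 30 with centred arrays, 8 with quantile-normalised values and 10 with a replicate block, where 21 were higher. With the block, Adamtsl2 (adjusted p of 0.0591) and 4 of the 7 ADAMs outside the somatic groups were among the lost calls. At a threshold of 0.01, 4 were lower, which follows from the stricter cut on the same fit. Among the 24 members at or above the median signal 4 were lower and 11 higher, which follows from testing fewer genes. The cause of the other counts was not tested. With each array left out in turn, 17 to 22 members were higher and 8 to 17 lower, and over all genes 3113 to 3860 were higher and 3160 to 4810 lower. Over all genes, 2334 were lower among those at or above the median signal and 2371 at 0.01. Values that changed sign belonged to members that did not pass: Adamts3 (-0.0517) and Loxl1 (-0.0074) with the mean of all probe sets, Mmp13 (0.10), Mmp1b (0.0162), Mmp20 (0.0524) and Reck (-0.0078) with quantile-normalised values, and Reck (-0.0071) with array weights. With 1 array left out, values ran from -0.19 to 0.0554 for Adamts5, -0.20 to 0.36 for Loxl1, -0.59 to 0.0775 for Loxl4, -0.33 to 0.0930 for Mmp13, -0.17 to 0.0059 for Mmp1b, -0.15 to 0.0103 for Mmp20 and -0.12 to 0.30 for Reck. The median difference of all genes was -0.19 with centred arrays and -0.05 with quantile-normalised values, against -0.11. No detection calls were used, so which dim probe sets lie above background was not tested.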
